A study of Mus musculus with 8 samples.

Results

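The Hox genes of the mouse genome were followed across 8 one-colour Agilent arrays. A gene was included when the RefSeq symbol of its probe was Hoxa, Hoxb, Hoxc or Hoxd with a number alone, which gave 39 of the 20887 named genes, 11 in the Hox A cluster, 10 in Hox B, 9 in Hox C and 9 in Hox D. The cells were LSK cells, the fraction negative for lineage markers and positive for Sca-1 and c-Kit that holds the blood stem cells, and MEP, the megakaryocyte and erythroid progenitors. They were sorted from irradiated CD45.1+ wild-type recipients 2 months after transplantation of C57BL/6 marrow of 4 genotypes, Cre-ERT2 (labelled WT), Ezh2flox/flox;Cre-ERT2 with Ezh2 deleted at week 4 after transplantation (Ezh2-deleted), JAK2V617F;Cre-ERT2 (JAK2V617F) and JAK2V617F;Ezh2flox/flox;Cre-ERT2 with the same deletion (double mutant). Cre-ERT2, a recombinase fused to an oestrogen receptor domain, was thus carried by the controls too, and the labels do not say how JAK2V617F was driven or whether animals were pooled. Each of the 8 groups had 1 array, so an effect was averaged over 4 matched pairs of arrays and no group had a replicate of its own.

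Hox genes encode homeodomain transcription factors and lie in 4 clusters, in which a gene's number follows its place from the 3' end (1) to the 5' end (13) and genes of the same number in different clusters are paralogues. In blood, genes of the A and B clusters are known to be active in stem and early progenitor cells and to be turned down as cells differentiate, and Hoxa9 with its partner Meis1 can drive leukaemia. Polycomb repressive complex 2, whose catalytic subunit is Ezh2, is known to hold inactive Hox genes silent by methylating lysine 27 of histone H3, while trithorax-type complexes built on Kmt2a keep active ones on. JAK2V617F is the activated kinase of myeloproliferative neoplasms.

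Levels are given as log2 signal minus the 75th percentile of the array, and the 4 values of a cell type always run in the order WT, Ezh2-deleted, JAK2V617F, double mutant. A level counted as measured when the scanner software marked the probe as well above background. Levels are read along 1 gene across arrays, because probes differ in brightness. Between 39.8% and 48.8% of probes were well above background on an array. The dimmest signal so marked, the floor of the array, lay between -4.17 and -3.53 in LSK and between -3.16 and -2.84 in MEP, so dim genes were harder to measure in MEP. Of 9 LSK markers 7 were lower in MEP and of 9 MEP markers 8 were higher. The summed linear signal of the LSK markers was 234 to 344 in LSK and 12 to 24.6 in MEP, and that of the MEP markers 43 to 84.1 and 352 to 788. Where Ezh2 was deleted, Xist read from 1.39 to 2.85 and the Y-linked Eif2s3y was not well above background, and where it was intact, Xist read at most -3.24 and Eif2s3y from 2.36 to 3.38. Ezh2 status and the sex of the marrow therefore cannot be told apart in any comparison below. The probe of Ezh2 itself read 3.33, 3.20, 3.65 and 3.41 in LSK and 3.96, 3.86, 4.04 and 3.43 in MEP, lower in each of the 4 deleted arrays than in its partner, and the exon it reads is not known from the sources used here, so it checks nothing about the deletion. B cell genes stood out on both arrays of Ezh2 deletion alone. The summed signal of 8 B cell markers was 15, 58.8, 19.7 and 18.7 in LSK and 2.76, 45.8, 2.88 and 6.28 in MEP. On the arrays of Ezh2 deletion alone 7 of the 8 markers were well above background in LSK and 6 in MEP, against 2 to 5 on the others, and Pax5 was so on no array.

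The clusters differed in how much of them could be measured. In Hox A 9 of 11 genes were well above background on at least 1 array, in Hox B 5 of 10, in Hox C 3 of 9 and in Hox D 0 of 9. Hoxa7, Hoxa9 and Hoxb4 were so on all 8 arrays. Over the 4 clusters 22 genes (56.4%) were well above background on no array, against 31.7% of all named genes. These were Hoxa11 and Hoxa13, which pattern the limb and urogenital tract, then Hoxb1, Hoxb7, Hoxb8, Hoxb9 and Hoxb13, then Hoxc5, Hoxc8, Hoxc10, Hoxc11, Hoxc12 and Hoxc13, and the whole D cluster (Hoxd1, Hoxd3, Hoxd4, Hoxd8, Hoxd9, Hoxd10, Hoxd11, Hoxd12 and Hoxd13). The D cluster is best known for the patterning of limbs and the genital bud. Their values, -6.37 to -2.99 with a median of -5.23, were not read as expression. A gene called silent below was well above background on no array, which depends on that flag. On most arrays a looser flag (signal positive and significant) marked more Hox genes than were well above background anywhere, so some of the 22 passed it. Hoxc13 read -2.99 on JAK2V617F MEP, above the floor of that array (-3.12), without being well above background. The mean of each of the 22 genes lay higher in MEP than in LSK, as the floors of the arrays did. Hoxd1, for example, read -5.03 against -5.88 and Hoxd9 -5.15 against -6.00.

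By position, 17 of the 30 genes numbered 1 to 10 were well above background somewhere and 0 of the 9 numbered 11 to 13. Position 6 was measured in each of its 3 members, Hoxa6, Hoxb6 and Hoxc6, and position 2 in both of its members. Position 4 was measured in Hoxa4, Hoxb4 and Hoxc4 and not in Hoxd4. Position 8 was measured in 0 of its 3 members. The 3 genes lying inside the clusters that the array also read, Hoxa11os, Gm53 and Hoxd3os1, were well above background on no array, as were Evx1 and Evx2, the even-skipped homologues next to Hox A and Hox D.

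**Figure D1:**
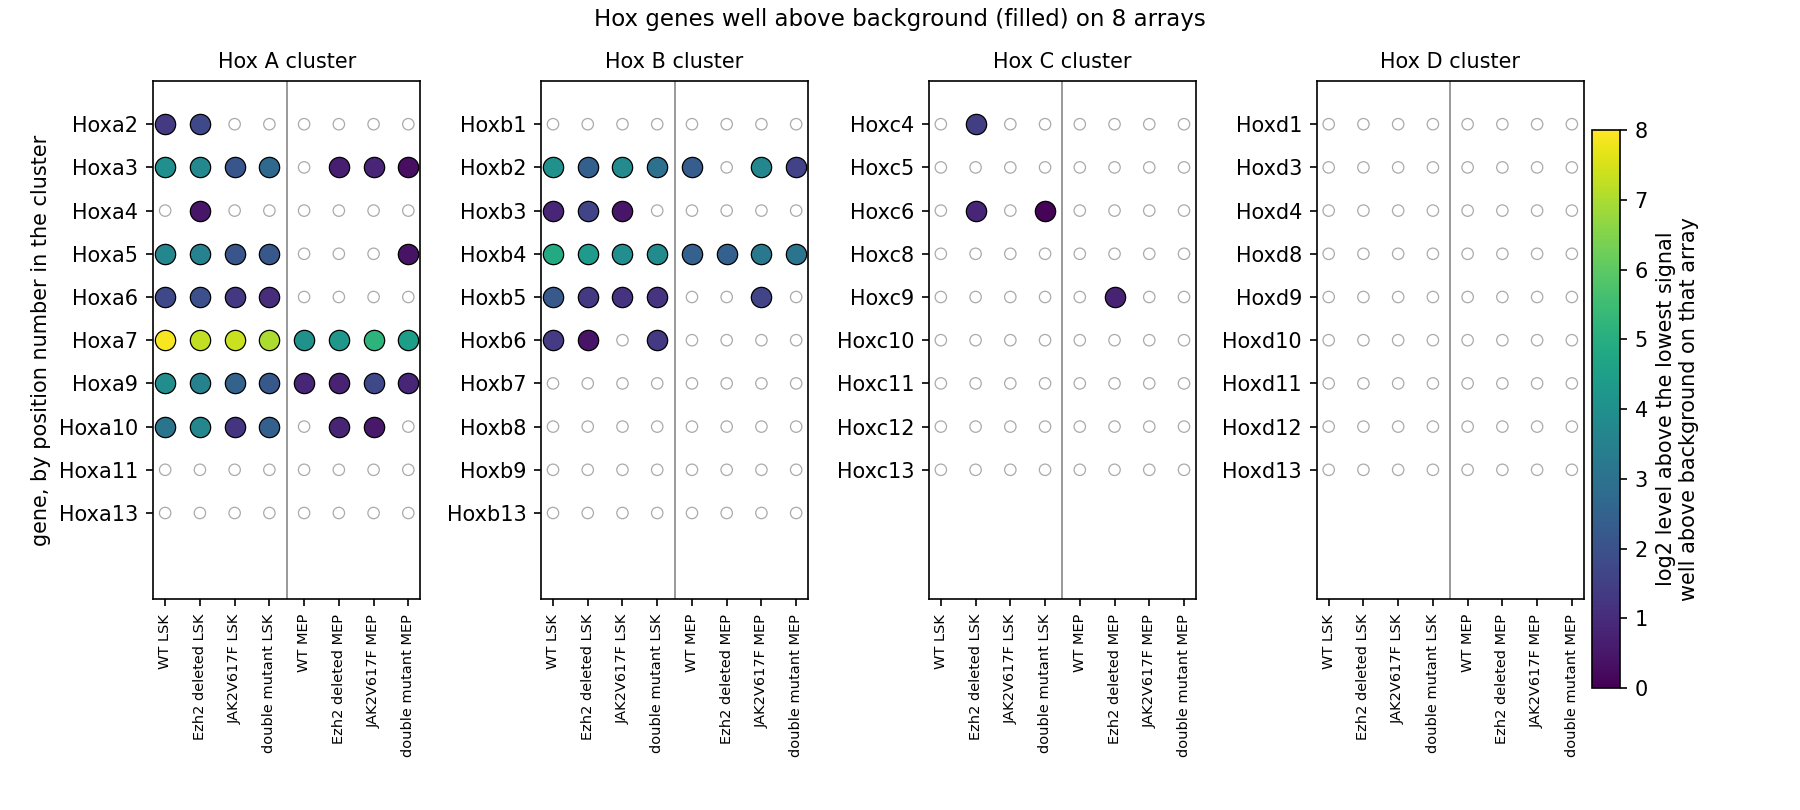
Each panel is a cluster, each row a Hox gene in order of its number (38 of the 39) and each column an array, with LSK left and MEP right of the grey line. Large filled circles mark a probe well above background, coloured by its log2 level above the floor of that array, and small open circles mark the others. The D cluster is open throughout, and circles are filled for 10 to 15 of the genes drawn in LSK and 4 to 7 in MEP.

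More Hox genes were measured in LSK than in MEP. The count of 39 was 13, 16, 10 and 12 in LSK and 4, 7, 8 and 7 in MEP, so the lowest LSK array held more than the highest MEP array. Of all named genes 57.7% to 62.2% were measured on an LSK array and 53.9% to 57% on an MEP array, so the share of the Hox genes, 25.6% to 41% and 10.3% to 20.5%, was below that of all genes throughout. The order of the cell types was lost with the looser flag of the scanner software (signal positive and significant), which gave 21, 25, 17 and 18 in LSK and 19, 21, 20 and 19 in MEP. Counting in every array only levels above -2.84, the highest of the 8 floors, gave 10, 13, 9 and 11 in LSK and 4, 7, 8 and 6 in MEP. Hoxa2, Hoxa4, Hoxa6, Hoxb3, Hoxb6, Hoxc4 and Hoxc6 were measured in LSK and on no MEP array, 17.9% of the Hox genes against 6.99% of all named genes. Hoxa4 and Hoxc4 rest on 1 LSK array each. The Hoxa4 level there, -3.65, lay below every MEP floor (-3.16 to -2.84). With values below background included, the mean of Hoxa4 was higher in MEP (-3.41) than in LSK (-4.39). Hoxc9 alone was measured in MEP and not in LSK (2.56%, against 3.81% of all named genes).

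Promoter sequence was at hand for 22 of the 39 genes. To show what the measured and the silent genes look like, the RefSeq windows (assembly GRCm38.p6, 250 bases before to 50 after the start, gene strand) are printed for the 3 genes measured on every array and for Hoxd4, the silent paralogue of Hoxb4, with CpG dinucleotides in capitals. CpG-rich DNA is where polycomb and trithorax complexes are known to be recruited. Hoxa7 lies at chr6:52218524-52218823 on the minus strand and holds 9 CpG, Hoxa9 at chr6:52227321-52227620 on the minus strand with 4, Hoxb4 at chr11:96318017-96318316 on the plus strand with 14, and Hoxd4 at chr2:74721728-74722027 on the plus strand with 4.
Hoxa7: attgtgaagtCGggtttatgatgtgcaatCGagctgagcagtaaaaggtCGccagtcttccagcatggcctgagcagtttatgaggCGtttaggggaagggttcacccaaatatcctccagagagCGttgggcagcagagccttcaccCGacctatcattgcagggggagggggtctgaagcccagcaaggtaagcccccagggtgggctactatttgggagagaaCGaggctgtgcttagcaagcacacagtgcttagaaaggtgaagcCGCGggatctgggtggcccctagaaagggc
Hoxa9: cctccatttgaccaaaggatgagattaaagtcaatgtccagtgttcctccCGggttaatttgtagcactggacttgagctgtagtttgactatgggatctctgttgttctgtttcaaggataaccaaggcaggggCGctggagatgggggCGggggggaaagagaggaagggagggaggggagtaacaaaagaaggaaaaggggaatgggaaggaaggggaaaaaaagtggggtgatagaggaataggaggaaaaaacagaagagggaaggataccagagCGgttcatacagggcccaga
Hoxb4: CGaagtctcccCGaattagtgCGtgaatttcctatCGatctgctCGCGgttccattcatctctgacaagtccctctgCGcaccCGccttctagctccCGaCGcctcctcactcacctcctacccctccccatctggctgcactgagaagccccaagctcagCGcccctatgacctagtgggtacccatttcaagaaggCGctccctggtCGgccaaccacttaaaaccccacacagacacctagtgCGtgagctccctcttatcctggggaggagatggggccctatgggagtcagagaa
Hoxd4: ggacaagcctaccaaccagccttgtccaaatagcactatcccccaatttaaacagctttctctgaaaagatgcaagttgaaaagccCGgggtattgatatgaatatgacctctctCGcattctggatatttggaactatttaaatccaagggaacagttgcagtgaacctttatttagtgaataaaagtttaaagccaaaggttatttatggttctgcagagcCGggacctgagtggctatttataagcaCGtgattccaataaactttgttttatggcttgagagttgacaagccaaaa
The 24 windows of the 22 Hox genes held a median of 14.5 CpG, from 4 to 45, against a median of 7 in 32841 windows of all genes. Windows of Hox genes measured on at least 1 array had a median of 13 and those of silent ones 17.5, and the extremes of both sets overlapped. Both Hoxa9, measured on every array, and Hoxd4, measured on none, had 4, which is more than in 31.4% of all windows. Searched on both strands, the GATA factor motif AGATAA was found in 0 of the 24 windows (11.2% of all windows), the Meis motif TGACAG in 2 (19.2%) (Hoxa2 and Hoxa3), the joint Hox and Pbx motif TGATTNAT in 2 (3.22%) and TATAAA in 4 (13.6%), Hoxd4 among them. A match describes these letters and no binding was measured.

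The first comparison asked how the genes differ between the stem cell fraction and the megakaryocyte and erythroid progenitors. A Hox gene was tested when its probe was well above background on at least 2 of 8 arrays, which left 14 of 39 (35.9%, against 63.1% of named genes), and 5 of the 14 passed through LSK arrays alone. With limma, p-values adjusted by the Benjamini-Hochberg method over all 13187 genes tested, 10 of the 14 (71.4%) were lower in MEP at an adjusted p under 0.05 and 0 higher. Of all genes tested 20.3% were lower and 20.6% higher. The median log2 difference of the 14 was -1.20 and of all genes 0.12. The filter favoured a lower MEP value for the 5 genes measured in LSK alone, 4 of which were called, as were 62.3% of all genes so measured. Of the 9 Hox genes measured in both cell types 6 were lower (66.7%, against 17% of all such genes), with a median of -1.10 against 0.16, a count taken after the values were seen. For 7 of the 14, Hoxa2, Hoxa3, Hoxa5, Hoxa6, Hoxa7, Hoxb3 and Hoxb4, the 4 MEP arrays lay below all 4 LSK arrays, as they did for 17.1% of all genes. Fewer cells expressing a gene and less RNA per cell cannot be told apart in sorted bulk samples.

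Hoxa7, Hoxa9 and Hoxb4 were measured on every array, so their differences need no floor. Hoxa7, a gene expressed in haematopoietic progenitors and raised with Hoxa9 in some leukaemias, read 3.76, 3.18, 3.83 and 3.34 in LSK and 1.09, 1.43, 2.05 and 1.27 in MEP. Each MEP array lay below every LSK array, and the fall was 4.20-fold (log2 -2.07, SE 0.21, n = 4 against 4, limma adjusted p = 2.5e-04). Hoxa9, which supports stem cell self-renewal, read -0.29, -0.59, -1.02 and -1.50 in LSK and -2.04, -2.07, -1.39 and -2.29 in MEP. The JAK2V617F MEP array lay above the double mutant LSK array, so the groups overlapped, although MEP was lower in each of the 4 genotypes, 2.14-fold on average (log2 -1.10, SE 0.26, adjusted p = 0.0126). A second Hoxa9 probe, also measured on all arrays, gave -1.11. Hoxb4, known for expanding stem cells when it is overexpressed, read 0.70, 0.26, 0.43 and 0.14 in LSK and -0.47, -0.42, 0.09 and -0.07 in MEP. Its 1.52-fold fall was the smallest called (log2 -0.60, SE 0.19, adjusted p = 0.0376). The Hoxb4 call ended when any 1 of 5 arrays was left out, with adjusted p of 0.129 without WT LSK, 0.0999 without Ezh2-deleted LSK, 0.0546 without JAK2V617F LSK, 0.123 without WT MEP and 0.0901 without Ezh2-deleted MEP.

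Hoxa3, Hoxa5 and Hoxa10 were measured on all LSK arrays and on some MEP arrays, so their folds are lower bounds, set by raising dim values to the floor of their array. Hoxa5, which takes part in the choice between erythroid and myeloid fates, read -0.48, -0.56, -1.42 and -1.51 in LSK. In MEP it was -3.54, -3.10 and -3.32, none well above background, and -2.77 in the double mutant, the 1 MEP array that measured it. It was at least 3.78-fold lower in MEP (log2 -2.19, SE 0.28, adjusted p = 7.7e-04). Hoxa3, a gene of pharyngeal and endothelial development, read -0.23, -0.33, -1.38 and -0.99 in LSK, and -3.58 (not well above background), -2.17, -2.28 and -2.87 in MEP, at least 3.55-fold lower (log2 -1.99, SE 0.37, adjusted p = 0.00458). Hoxa10, a regulator of myeloid and megakaryocytic development, read -1.08, -0.39, -2.29 and -1.25 in LSK and -3.22, -2.03, -2.60 and -2.94 in MEP, where the WT and double mutant arrays were not well above background. It was at least 2.58-fold lower (log2 -1.44, SE 0.30, adjusted p = 0.00764), and the Ezh2-deleted MEP array lay above the JAK2V617F LSK array. With normexp background correction, which here adds an offset to every signal, the 3 calls were kept but the log2 differences were smaller than these bounds, at -0.98 for Hoxa5, -0.93 for Hoxa3 and -0.46 for Hoxa10, so the bounds hold for the scanner's own background subtraction. Hoxa9 likewise gave -0.66.

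Hoxa2, Hoxa6, Hoxb3 and Hoxb6 were well above background on 2 to 4 LSK arrays and on no MEP array. Hoxa6, a gene of axial patterning, read -2.43, -2.15, -2.22 and -2.67 in LSK and between -3.43 and -2.91 in MEP, at least 1.50-fold lower (log2 -0.79, SE 0.20, adjusted p = 0.0183). That call ended without any 1 of 4 arrays, with adjusted p of 0.0630 without Ezh2-deleted LSK, 0.0517 without JAK2V617F LSK, 0.0593 without WT MEP and 0.0540 without double mutant MEP, and its sign turned under normexp background correction (0.07). Hoxa2, a gene of hindbrain and branchial arch patterning, read -2.85 and -2.38 in WT and Ezh2-deleted LSK and was below background elsewhere, with a measured log2 difference of -1.85 (SE 0.22, adjusted p = 5.6e-04) and no fold bound above 1. Hoxb3, studied with Hoxb4 in stem cell regeneration, read -3.34, -2.48 and -3.08 in the first 3 LSK groups, was not well above background in the double mutant (-3.95), and gave -1.43 (SE 0.29, adjusted p = 0.00709), again with no bound. Its second probe, measured on 4 arrays, gave -2.30. Hoxb6, expressed in early haematopoietic and erythroid precursors, read -2.77, -3.67 and -2.36 in WT, Ezh2-deleted and double mutant LSK and gave -1.30 (SE 0.29, adjusted p = 0.0102), with no bound. With 1 common floor for all arrays the calls of Hoxa2, Hoxb3 and Hoxb6 ended (adjusted p = 0.453, 0.477 and 0.396), and with normexp background correction 6 of the 10 genes were called, Hoxa3, Hoxa5, Hoxa7, Hoxa9, Hoxa10 and Hoxb4.

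Hoxb2, Hoxb5 and Hoxc6 were tested and not called. The differences were -0.59 for Hoxb2 (adjusted p = 0.118), -0.73 for Hoxb5 (0.153) and -0.57 for Hoxc6 (0.259). Without the JAK2V617F LSK array both Hoxb2 (-0.86, adjusted p = 0.0220) and Hoxb5 (-1.14, 0.0155) were called lower, and Hoxb5 also without JAK2V617F MEP (-1.11, 0.0290).

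**Figure D2:**
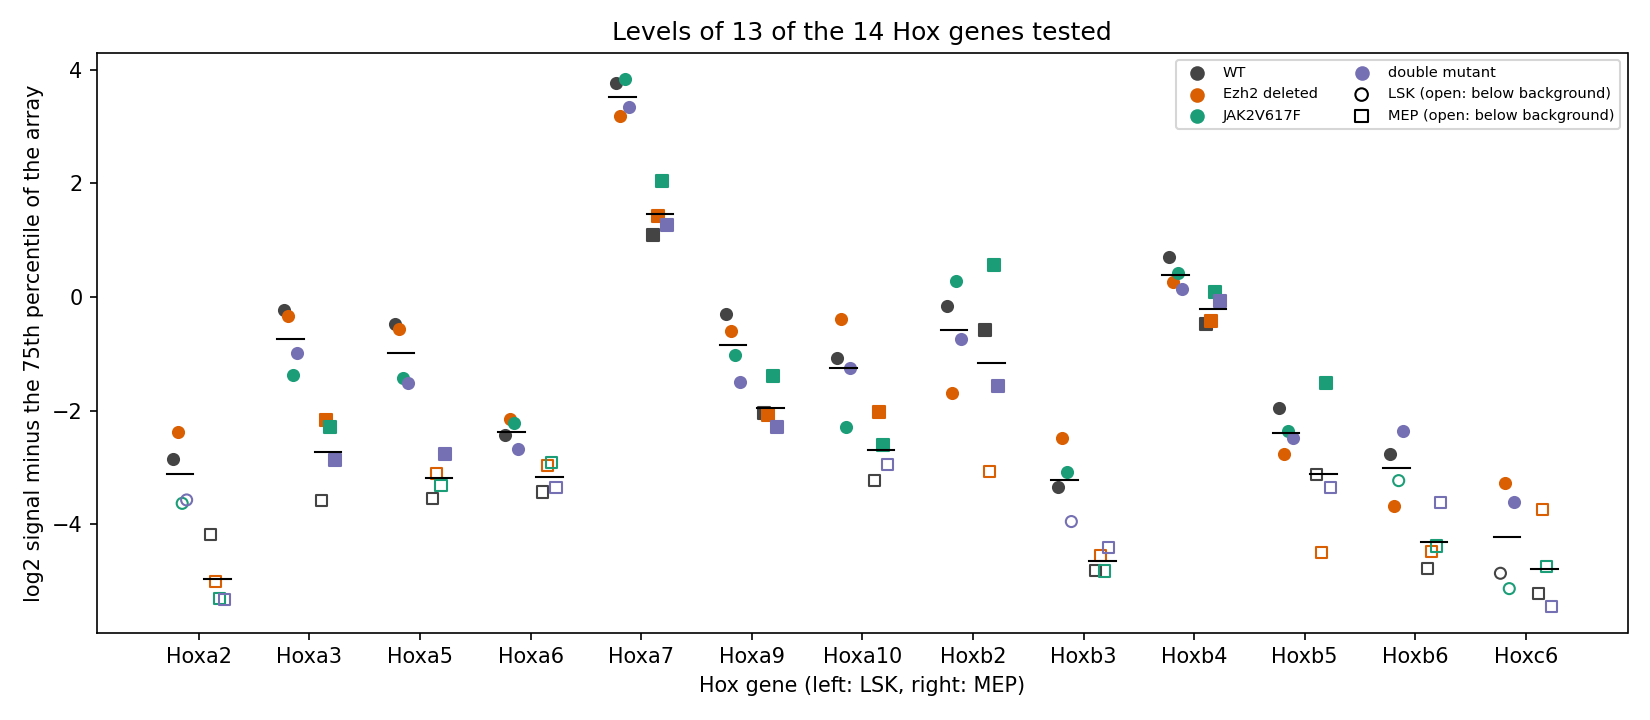
The y axis is the log2 signal minus the 75th percentile of the array for 13 of the 14 tested Hox genes, with 4 LSK arrays (circles) left and 4 MEP arrays (squares) right of each name, coloured by genotype, open where not well above background, and a bar at the mean of each cell type. Hoxa7 falls from between 3.18 and 3.83 to between 1.09 and 2.05, and for each of the 13 genes the MEP mean lies below the LSK mean.

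The genes that flank the clusters were compared in the same way, with 3 named neighbours taken on each side. The shares of all genes tested were 20.3% lower and 20.6% higher in MEP. Beside Hox A 3 of the 5 tested were lower in MEP, Skap2, an adaptor of the Src kinase family (-1.46, SE 0.15, adjusted p = 2.5e-04), Snx10, a sorting nexin (-1.07, adjusted p = 0.00205), and Tax1bp1, an autophagy receptor (-0.66, adjusted p = 0.0130), while Cbx3 (-0.04) and Hibadh (0.13) were not called. Beside Hox B 1 of 5 was lower, the adaptor gene Skap1 (-2.34, SE 0.28, adjusted p = 5.9e-04, at least 2.55-fold), and the ATP synthase subunit gene Atp5g1 was higher (1.18, adjusted p = 0.00543). Beside Hox C 0 of 5 were called, with 1 at an unadjusted p under 0.05 (Calcoco1, -1.04). Beside the silent Hox D 4 of 5 were higher in MEP, the antioxidant regulator Nfe2l2 (1.13, SE 0.17, adjusted p = 0.00156), Lnpk (0.94, 0.00571), the mitochondrial import gene Mtx2 (0.89, 0.00706) and Atp5g3 (0.68, 0.0317).

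The cofactors and targets of Hox proteins were set beside them. Of 9 TALE homeodomain genes, whose products bind DNA together with Hox proteins, 7 were tested. Meis1, the partner of Hoxa9, read 5.42, 5.20, 4.41 and 4.42 in LSK and 3.59, 3.48, 3.78 and 3.11 in MEP, a 2.59-fold fall without overlap (log2 -1.37, SE 0.22, adjusted p = 0.00224). Pbx4 was 1.66-fold higher in MEP (log2 0.73, SE 0.16, adjusted p = 0.00825), and Pbx2, Pbx3, Meis3 and Pknox1 were not called, from -0.19 to 0.17. Of 13 genes reported as targets of Hoxa9 and Meis1, 8 were lower in MEP and 0 higher, with a median of -1.31. Among all genes tested 20.3% were lower and 20.6% higher, with a median of 0.12. The receptor gene Flt3 was at least 170-fold lower and Cd34 90.1-fold lower, both of which also mark LSK cells and stand in the marker list above, and Erg, a stem cell transcription factor, was 6.93-fold lower (log2 -2.79, SE 0.28, adjusted p = 2.5e-04). Camk2d (at least 9.48-fold), Id2 (4.63-fold), Sox4 (3.58-fold), Bcl2 (2.48-fold) and Foxp1 (2.11-fold) were lower too, while Lmo2 (-0.31), Cdk6 (-0.17), Igf1r (-0.16) and Myb (0.22) were not called. Of 15 activators of Hox transcription, trithorax-type and elongation complex genes with the Cdx factors, 14 were on the array by name. The exception was Kmt2a, which no probe matched and which was not analysed. Of the 14, 11 were tested and 1 was called, Mllt3, an elongation factor gene (1.06 higher in MEP, SE 0.21, adjusted p = 0.00557). Cdx1, Cdx2 and Cdx4, which activate Hox genes in the embryo, were well above background on no array.

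The next comparison asked how the Hox genes differed with deletion of Ezh2. With limma 1 of the 14, Hoxb2, was lower with deletion and 0 were higher, against 0.0455% of all genes lower and 0.66% higher, and 4 of the 14 had an unadjusted p under 0.05 (18.1% of all genes). The median of the 14 was 0.07 and of all genes -0.09. Hoxb2, a gene of hindbrain patterning also expressed in haematopoietic cells, read -0.16, -1.68, 0.28 and -0.73 in LSK and -0.58, -3.07, 0.57 and -1.57 in MEP, with the Ezh2-deleted MEP array not well above background. All 4 Ezh2-deleted arrays lay below all 4 Ezh2-intact ones, as they did for 3.04% of all genes. The pair differences were -1.52 and -1.01 in LSK and -2.49 and -2.14 in MEP, without and with JAK2V617F. Hoxb2 was at least 3.32-fold lower with deletion (log2 -1.79, SE 0.27, n = 4 against 4, limma adjusted p = 0.0406), a value close to the threshold. It missed the threshold in 6 of 8 fits that left out 1 array, with adjusted p of 0.0650 without WT LSK, 0.0774 without double mutant LSK, 0.0748 without WT MEP, 0.0525 without Ezh2-deleted MEP, 0.144 without JAK2V617F MEP and 0.187 without double mutant MEP, while the difference stayed between -2.06 and -1.53. B cell markers well above background were also more numerous on each Ezh2-deleted array than on its partner, 7 against 2 and 5 against 2 in LSK and 6 against 3 and 4 against 2 in MEP, and their part in the Hoxb2 difference was not tested. The threshold was also missed with quantile normalization (-1.85, adjusted p = 0.0662) and with a common floor (-1.73, 0.179). With normexp background correction the call was kept and the difference was smaller than the bound above, at -1.13 (adjusted p = 0.00977).

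No other difference passed the test. Hoxb5, known to mark long-term stem cells, read -1.96, -2.76, -2.36 and -2.48 in LSK and -3.12, -4.49, -1.52 and -3.35 in MEP, where JAK2V617F alone was well above background. Its pair differences were -0.79, -0.11, -1.36 and -1.83, and the fitted value was -1.03 (SE 0.37, adjusted p = 0.247). Hoxc6, a thoracic patterning gene, was well above background on the 2 Ezh2-deleted LSK arrays alone (-3.27 and -3.61), against -4.86 and -5.13 in their partners and -5.21, -3.74, -4.74 and -5.44 in MEP, all below background (0.97, SE 0.38, adjusted p = 0.260). Hoxc6 entered the test through those 2 arrays. A further 10 genes lay between -0.43 (Hoxa9, lower in 4 of 4 pairs, adjusted p = 0.384) and 0.64 (Hoxa10, higher in 3 of 4, adjusted p = 0.300). Among the genes measured on every array the difference was -0.37 for Hoxa7 (SE 0.21) and -0.21 for Hoxb4 (SE 0.19), neither called.

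Among the genes too dim to test, those measured at all were measured where Ezh2 was deleted. Hoxa4 (-3.65) and Hoxc4 (-2.68), the latter known from B cells, where it takes part in inducing the antibody-diversifying deaminase, were well above background on the Ezh2-deleted LSK array alone. Hoxc9, a gene of the posterior body axis (-2.09), was so on the Ezh2-deleted MEP array alone. With Hoxc6 this made 4 of 39 genes (10.3%) measured on Ezh2-deleted arrays and on no intact one, against 3.68% of all named genes, and 0 of 39 the other way round, against 2.64%. Hoxa4, Hoxc4 and Hoxc9 were each measured on 1 array, with no replicate, and none of the 3 in the double mutant. Those 2 arrays also had the highest summed B cell signal of their cell type, 58.8 and 45.8, and its part in these values was not tested.

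Within the cell types the Hox calls were few. In LSK limma called 0 of 14 with Ezh2 deletion (0.144% of all genes in either direction), with 3 at an unadjusted p under 0.05 (9.48% of all genes), among them Hoxb2 (-1.26, SE 0.24, adjusted p = 0.152) and Hoxc6 (1.55, 0.391). In MEP 1 of 14 was called, Hoxb2 (-2.31, SE 0.24, adjusted p = 0.0321, with 0.152% of all genes lower and 0.425% higher), beside Hoxb5 (-1.60, SE 0.26, adjusted p = 0.107). These fits pool the spread of both cell types. With 1 array left out, the remaining arrays of its cell type fit exactly, and the spread comes from the other cell type alone. Without any 1 LSK array 3 genes were called in MEP, Hoxb2 and Hoxb5 among them. Those fits share the same MEP arrays and spread, so they are nearly 1 fit and do not repeat each other. The call of Hoxb2 in MEP ended without any 1 MEP array. The difference between the MEP and LSK effects was called for 0 of 14 (0.00758% of all genes). It had an unadjusted p under 0.05 for Hoxb2 (-1.05, SE 0.34, limma adjusted p = 0.774) and Hoxb5 (-1.14, SE 0.37, limma adjusted p = 0.790), and for 5.35% of all genes.

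Among the cofactors, activators, targets and flanking genes, Pbx3 and Skap1 were called with deletion. Pbx3, which encodes a cofactor that joins Hoxa9 and Meis1 in leukaemia, read 0.55, 1.92, -0.45 and 1.78 in LSK and 0.71, 1.93, 0.15 and 1.71 in MEP. The Ezh2-deleted arrays lay between 1.71 and 1.93 and the intact ones at 0.71 or below, and Pbx3 was 3.02-fold higher with deletion (log2 1.60, SE 0.20, adjusted p = 0.0220). Skap1, which lies beside the Hox B cluster and is known as a T cell adaptor, read -2.66, -0.38, -2.63 and 0.19 in LSK and -4.56, -1.85, -5.45 and -2.98 in MEP, with the 2 Ezh2-intact MEP arrays below background, and was at least 2.99-fold higher with deletion (log2 2.57, SE 0.28, adjusted p = 0.0139). The difference was 2.55 within LSK (adjusted p = 0.0487) and 2.60 within MEP (0.0228). Of 5 markers of T and NK cells 3 were tested and 1, the granzyme gene Gzma, was higher with deletion (1.78, adjusted p = 0.0235), while Cd3g was well above background on no array and the summed signal of the list was 2.18 to 3.59 over the 8 arrays, and its part in the Skap1 values was not tested. The other tested neighbours of Hox B, Ttll6, Snx11, Cbx1 and Atp5g1, were not called with deletion, nor was any tested neighbour of the other clusters, any activator or any target of Hoxa9 and Meis1.

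**Figure D3:**
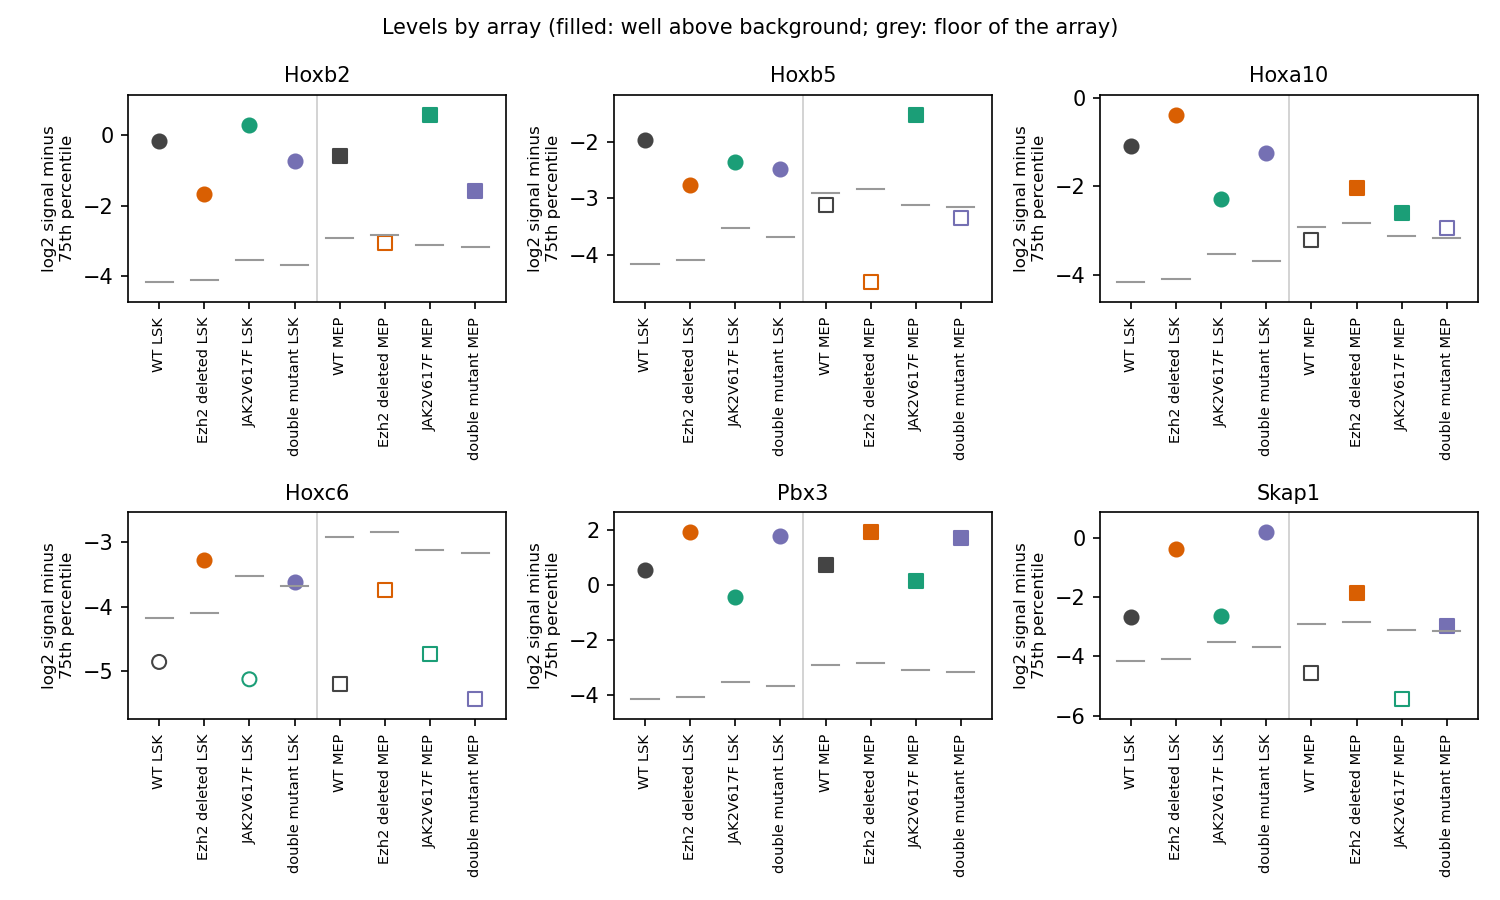
Each panel shows 1 gene on the 8 arrays, with LSK as circles left and MEP as squares right of the grey vertical line. The y axis is the log2 signal minus the 75th percentile, filled symbols are well above background, and short grey bars mark the floor of each array. Hoxb2 is lower and Pbx3 higher on the Ezh2-deleted and double mutant arrays than on every Ezh2-intact one, while Hoxc6 is filled on 2 LSK arrays alone.

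With JAK2V617F limma called 0 of the 14 Hox genes (0.311% of all genes in either direction), with 2 at an unadjusted p under 0.05 (11.1% of all genes). The median of the 14 was -0.16 and of all genes 0.01. Hoxb2 was higher with JAK2V617F in 4 of 4 pairs, by 0.43 and 0.94 in LSK and 1.16 and 1.50 in MEP (1.01, SE 0.27, adjusted p = 0.261). Hoxa2 was lower in 4 of 4 pairs (-0.86, SE 0.22, adjusted p = 0.233), and it was well above background on the 2 LSK arrays without JAK2V617F and on no array with it. Hoxa2 entered the test through those 2 arrays, so the filter favoured a lower JAK2V617F value. In its MEP pairs no value was well above background. A further 3 genes, Hoxa4, Hoxc4 and Hoxc9, were likewise measured only without JAK2V617F, so 4 of 39 (10.3%) were, against 4.17% of all named genes, and 0 the other way. These 3 are the genes measured on 1 array each and already counted with Ezh2 deletion, so they are no separate observation. The Hoxa4 level, -3.65, also lay below the floor of the JAK2V617F LSK array (-3.53). The remaining 12 tested genes lay between -0.59 (Hoxa10) and 0.66 (Hoxb5). In JAK2V617F marrow the summed signal of 8 granulocyte markers was also higher, 1730 and 629 against 539 and 361 in LSK and 147 and 266 against 20.8 and 41.9 in MEP, and its part in the Hox values was not tested.

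Whether the effect of Ezh2 deletion depended on JAK2V617F was asked with an interaction term, and limma called 0 of 14 Hox genes and 0 of 13187 genes (0%). An unadjusted p under 0.05 was reached by 2 Hox genes, Hoxa6 (-0.82, SE 0.31) and Hoxb6 (1.12, SE 0.45), each with a limma adjusted p of 0.972, and by 3.47% of all genes. For Hoxb2 the interaction was 0.43 (SE 0.56).

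**Figure D4:**
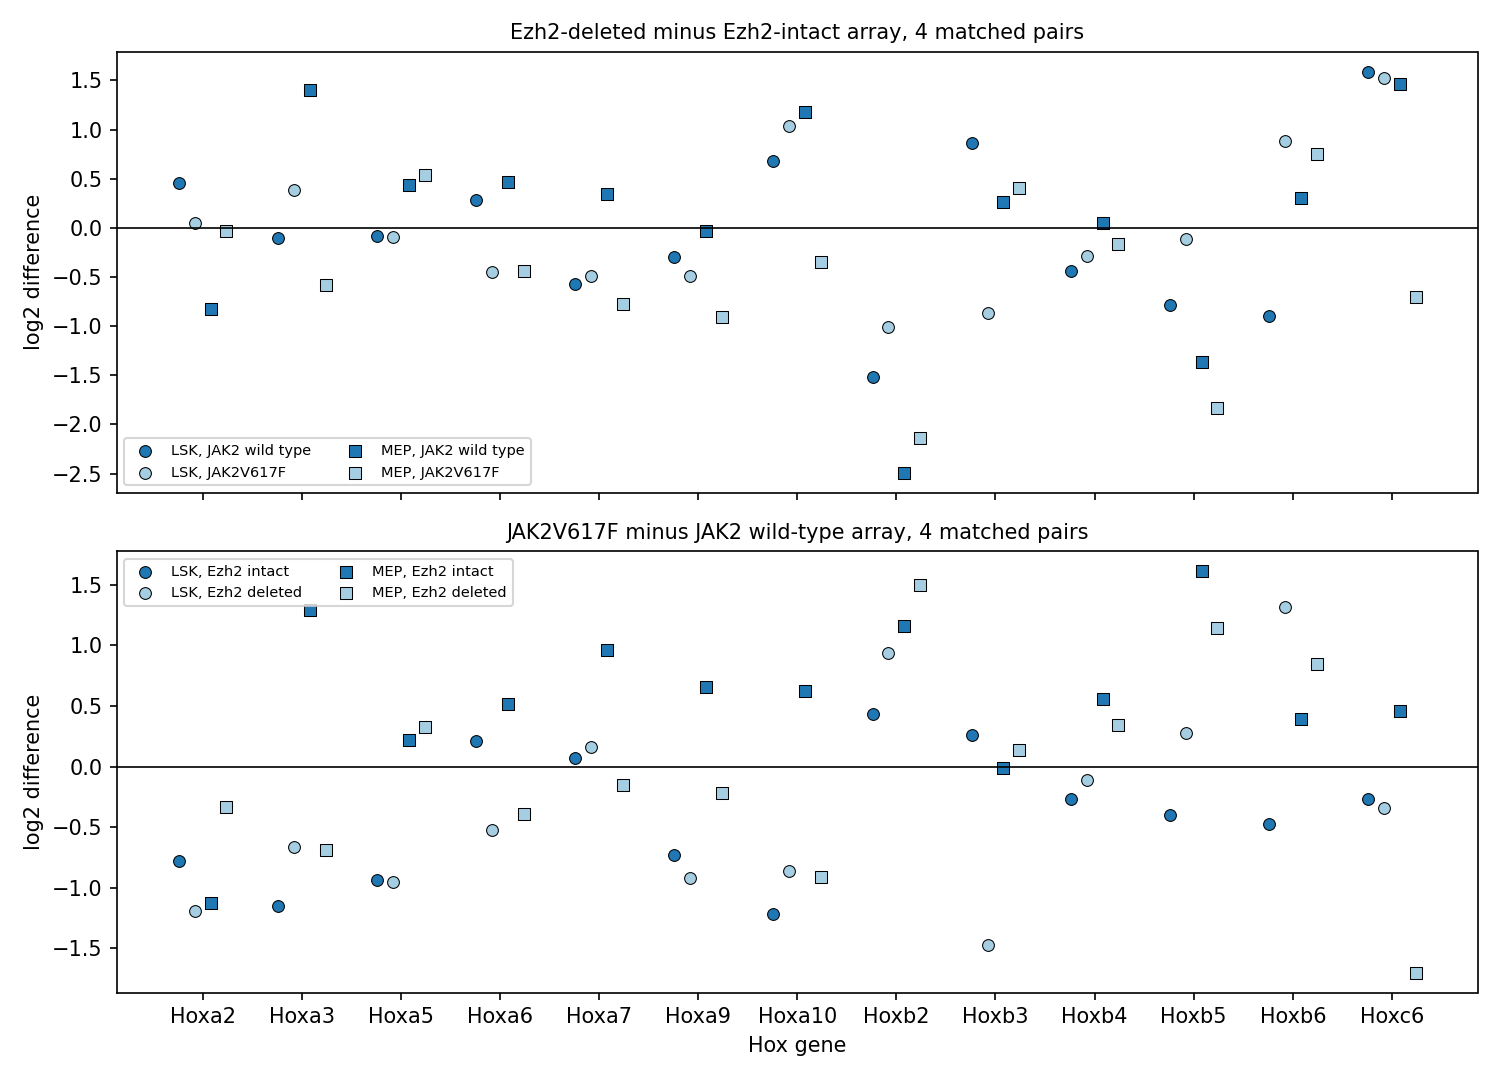
The y axis is the log2 difference within a matched pair of arrays for 13 of the 14 tested Hox genes, with Ezh2-deleted minus intact above and JAK2V617F minus JAK2 wild type below. Circles are LSK pairs, squares MEP pairs, and dark and light fills mark the state of the other gene as the legend says. In the upper panel the 4 Hoxb2 values lie between -2.49 and -1.01, and in the lower between 0.43 and 1.50.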

How the data were processed

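Intensity values of 8 one-colour arrays, on 1 slide with 1 scan, were deposited by the authors as scanner files. Background had been subtracted by Feature Extraction 10.7.1.1 (Agilent), per the file headers. A series table, also deposited, gives a linear ratio that follows the processed signal of each array, and it served as an alternative. From each group 20 ng of RNA was labelled with Cy3, per the labels' protocols.

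Processed signals of a probe's spots, without non-uniform spots, were averaged and log2-transformed, and the log2 of the 75th percentile over non-control spots was subtracted. RefSeq accessions of 27509 of 55681 probes matched a symbol (GRCm38.p6 table, names alone), covering 20887 genes. A gene was read from its probe of highest mean log2 signal and tested when well above background on at least 2 arrays (13187 genes). limma 3.58.1 in R 4.3.3 fitted cell type, JAK2 and Ezh2 additively, effects within cell types, their difference, and an interaction. The threshold for a call was an adjusted p (Benjamini-Hochberg) below 0.05. The number of arrays limits the precision, and p-values measure the spread between pairs of single arrays. For a bound, dim values were raised to the floor of their array. The fits were tested on simulated data. Alternatives were normexp (offset 50) on median signals, quantile normalization, the series table, other filters, other probe rules, a common floor, and leaving out each array. A percentile over probes well above background everywhere and a probe rule on linear signal were added after seeing the data. The members and the gene lists were chosen with earlier results of these data known. Every Hox gene is accounted for, with each array's value where it was tested, except 1 tested member that is counted but not reported here, and of the other lists the called genes and up to 4 others with the largest difference between MEP and LSK are named, apart from genes singled out after their values were seen.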

Additional observations from a re-analysis of the deposited data

Results flagged for a closer look

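Signals appeared in genes that no comparison used. Hoxa4 at -3.65 and Hoxc4 at -2.68 on the Ezh2-deleted LSK array, and Hoxc9 at -2.09 on the Ezh2-deleted MEP array, were well above background on that array alone, and no control array measured them. For Hoxa5 the JAK2V617F differences were negative in both LSK pairs (-0.94 and -0.95) and positive in both MEP pairs (0.22 and 0.33), a difference of 1.22, and 3 of the 4 MEP values behind it were not well above background. For Hoxb4 they were negative in the LSK pairs (-0.27 and -0.12) and positive in the MEP pairs (0.56 and 0.35), a difference of 0.65, on levels measured on all arrays. The difference between cell types was not tested for either gene.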

How the results depend on the processing

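The MEP fall of Hoxa3, Hoxa5, Hoxa7, Hoxa9 and Hoxa10 was called under all settings in which the gene was tested, with smaller differences under normexp for Hoxa3 (-0.93), Hoxa5 (-0.98), Hoxa9 (-0.66) and Hoxa10 (-0.46). The count of 10 called Hox genes, taken here in either direction, became 3 (of 3 tested) with the filter on all 8 arrays. It ranged from 7 to 11 over fits without 1 array. With no filter it was 30 (of 39), and values below background entered that fit. The Hox genes that the filter had left out read higher in MEP, such as Hoxd1 (0.86) and Hoxb9 (0.77). Only 13 Hox genes, all of them tested, read lower in MEP. At most 13 of the 30 calls were therefore falls in MEP, and most were rises. The Ezh2 count of 1 became 0 with quantile normalization, the filter on all arrays, no filter, a common floor and the percentile over probes detected on all arrays, and ranged from 0 to 1 without 1 array. The count of 1 within MEP became 0 with the filter on all arrays, no filter, a common floor and that percentile. It also changed in fits without 1 array, which take their spread from 1 cell type alone. Counts of 0 for JAK2V617F, for Ezh2 deletion within LSK, for the difference between cell types and for the interaction stayed at 0 under every setting. With the looser flag (IsPosAndSignif) the Hox genes measured were 21 in WT LSK, 25 in Ezh2-deleted LSK, 17 in JAK2V617F LSK, 19 in WT MEP, 21 in Ezh2-deleted MEP, 20 in JAK2V617F MEP and 19 in double mutant MEP, beside 18 in double mutant LSK. The cause of these changes was not tested.

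Signs turned for 1 called difference, Hoxa6 in MEP over LSK (0.07 under normexp), and for some that were not called. In MEP over LSK under normexp Hoxb5 was 0.01 and Hoxc6 0.23. With Ezh2 deletion Hoxa2 was 0.06 under normexp, 0.11 with a common floor and 0.04 with the percentile over detected probes, Hoxa5 was -0.03 with a common floor, Hoxa6 was 0.08 under normexp and 0.09 with that percentile, and Hoxb3 was -0.06 with all probes averaged and -0.28 from the probe of highest linear signal. The median of all genes in MEP over LSK moved from 0.12 to 0.01 with quantile normalization and to -0.02 with that percentile. Without 1 array the Ezh2 differences ranged from -0.15 to 0.13 for Hoxa2, -0.15 to 0.64 for Hoxa3, -0.03 to 0.43 for Hoxa5, -0.19 to 0.10 for Hoxa6 and -0.38 to 0.51 for Hoxb3, and the JAK2V617F differences from -0.20 to 0.09 for Hoxa6, -0.44 to 0.07 for Hoxb3 and -0.02 to 0.27 for Hoxb4.

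No paired analysis was possible because each group has replicate 1 alone, so replicate numbers tie no arrays together, and the pairs printed match arrays by cell type and genotype, which the additive fit holds as terms. Depth has no meaning here, and signal over background limits the MEP values of the dim genes.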
